A study of Mus musculus with 10 samples.

Results

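The genes described are the TGF-beta ligands Tgfb1, Tgfb2 and Tgfb3, the receptors Tgfbr1 and Tgfbr2, and the intracellular mediators Smad2, Smad3 and Smad4. They were chosen by name, and all 8 were found among the 770 probes of the NanoString PanCancer Immune Profiling panel that target mouse genes. This panel hybridises barcoded probes to total RNA and counts the barcodes without amplification. The 10 tumors were YUMMER1.7 grafts, of which WT mice carried 5 and Siah2-/- mice, called Siah2 KO here, the other 5. YUMMER1.7 is a Braf-mutant mouse melanoma line with a high load of somatic mutations. Siah2, an E3 ubiquitin ligase, was deleted in the host, and the same tumor cells were injected into both groups, so Siah2 was lost in host cells only. The mice were male and of C57BL/6 background, and the growth experiment of the study names an age of 5 to 7 weeks and an injection of 400000 cells under the skin. The study's reporting summary gives another, overlapping and older range of ages for all its mice, so the age here is not certain. The labels give collection on day 11, and the study's legend gives day 10. The labels do not tie a tumor to an animal, a cartridge or a date, so p-values measure the spread between these tumors. The comparison asks which TGF-beta genes differ in RNA level between tumors of the 2 hosts.

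TGF-beta ligands are secreted in a latent complex and act after release by proteases, integrins or thrombospondin. The active dimer binds the type II receptor Tgfbr2, which recruits and phosphorylates the type I receptor Tgfbr1. Tgfbr1 phosphorylates Smad2 and Smad3, which join Smad4 and move to the nucleus to regulate transcription. In tumors the pathway is known for driving matrix production by fibroblasts, for restraining effector T cells and for promoting regulatory T cells. These steps rest on protein processing and phosphorylation, and the panel measures RNA.

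The 8 genes are divided here only by whether they passed the test. Tgfb2, Tgfb3, Tgfbr2 and Smad3 were lower in every Siah2 KO tumor than in any WT tumor and passed the test, whereas Tgfb1, Tgfbr1, Smad2 and Smad4 did not pass. The test was limma's two-sided moderated test on log2(normalized count + 1), with Benjamini-Hochberg adjustment over the 770 probes and a threshold of 0.05. Of the 8 genes, 4 were lower and 0 higher at that threshold, where 41% of all probes passed, with 9.74% lower and 31.3% higher. The absence of overlap with Siah2 KO below WT held for 4 of the 8 genes and for 7.01% of all probes, and 31.6% of all probes had no overlap in either direction. The median log2 fold change was -0.29 over the 8 genes and 0.24 over all 770 probes. All 8 genes were above the floor of the assay in all 10 tumors and had a mean of at least 20 normalized counts.

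**Figure D1:**
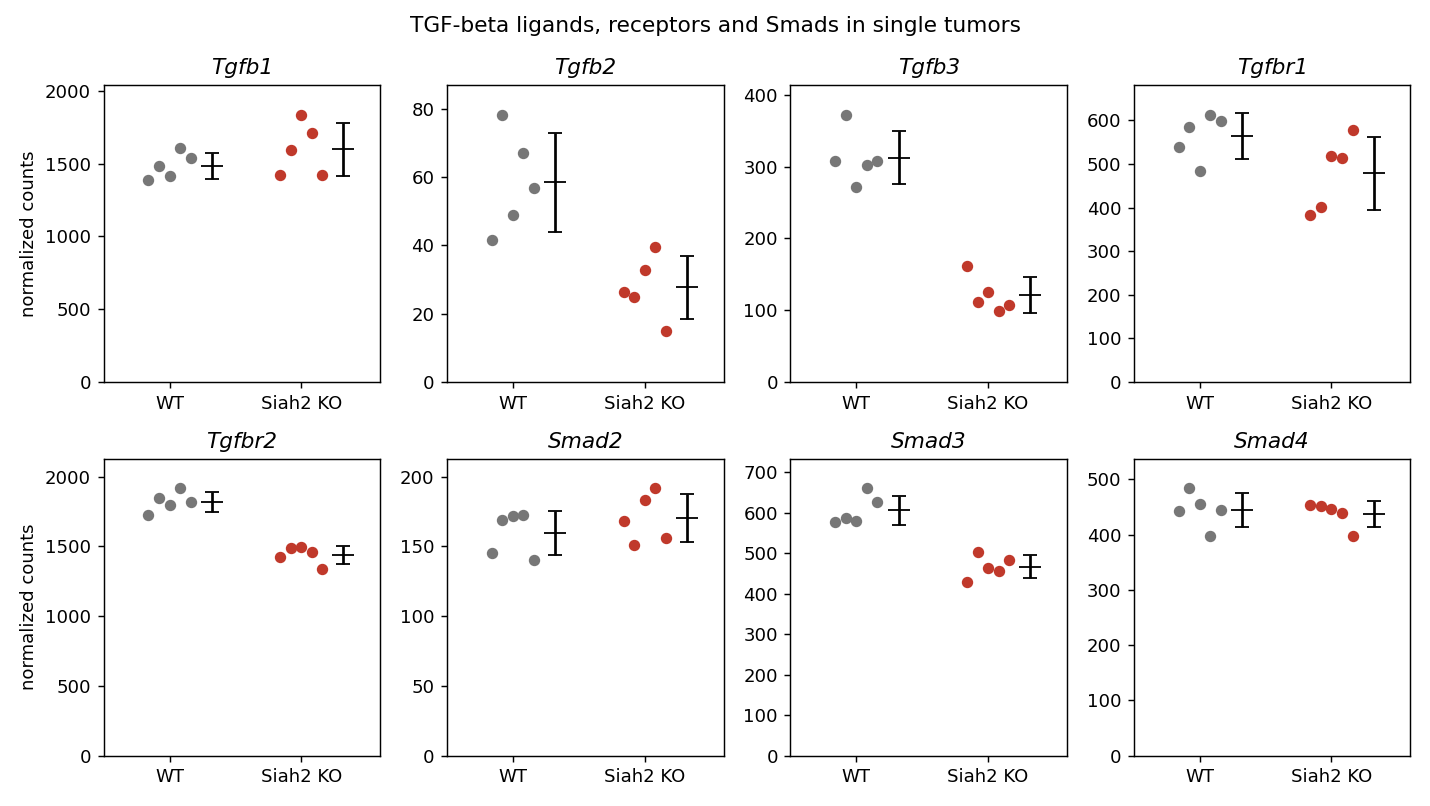
Normalized counts (vertical axis, starting at 0) of each of the 8 genes in the 5 WT tumors (grey points) and the 5 Siah2 KO tumors (red points), with the mean and SD of each group as a bar. Tgfb2, Tgfb3, Tgfbr2 and Smad3 show Siah2 KO points that all lie below the WT points, and the other 4 genes overlap.

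**Figure D2:**
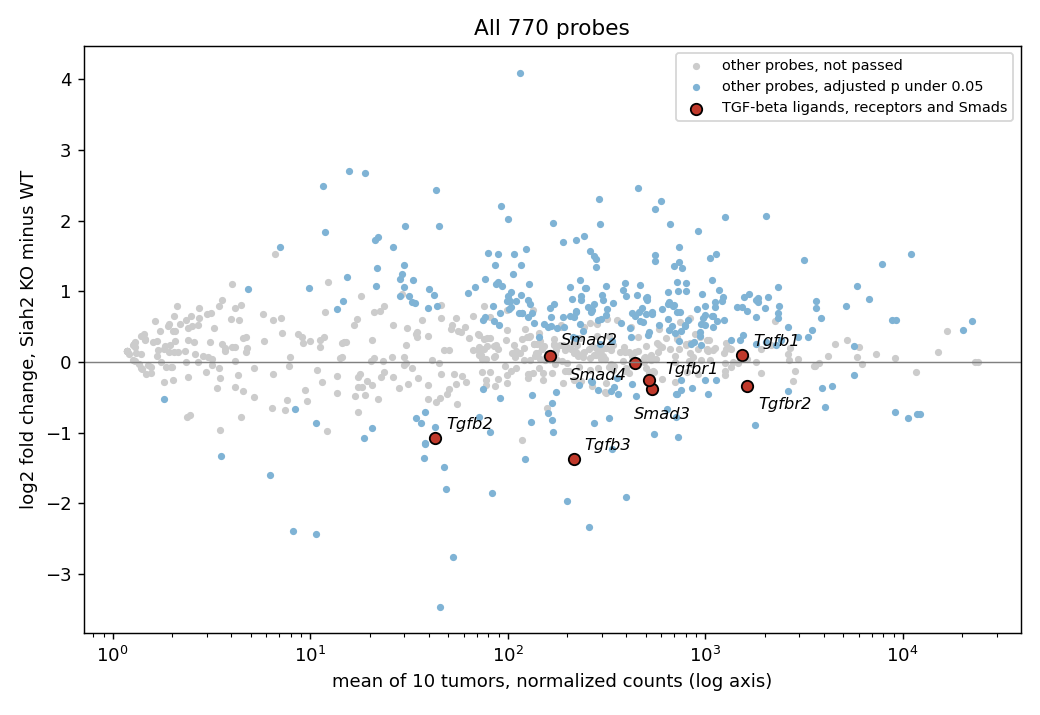
Log2 fold change, Siah2 KO minus WT (vertical axis), against the mean normalized count of the 10 tumors (horizontal log axis) for all 770 probes, with the 8 genes in red and other probes at adjusted p under 0.05 in blue. Tgfb3 at -1.38 and Tgfb2 at -1.08 lie in the lower part of the cloud, while Tgfb1 and Smad2 lie near 0.

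The ligands moved apart. Tgfb3, a ligand known for its part in palate fusion and scarless repair, had the largest difference of the 8 genes. Its normalized counts were 308, 373, 271, 302 and 308 in WT tumors 2 to 6 and 162, 111, 125, 98.6 and 108 in Siah2 KO tumors 1, 2, 3, 5 and 6. The groups were separated by a wide gap, and the highest Siah2 KO value was that of tumor 1. The means were 121 ± 24.7 in Siah2 KO and 312 ± 37.0 in WT (SD, n = 5 each). This gave a log2 fold change of -1.38 with an SE of 0.14, that is, a ratio of 0.385, at an adjusted p of 0.00018 by limma. Ordered from the lowest fold change, Tgfb3 was in place 12 of the 770 probes.

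Tgfb2, a ligand with roles in heart and eye development, was measured at low counts. It had 41.5, 78.3, 49.0, 67.0 and 56.8 normalized counts in WT tumors 2 to 6 and 26.4, 24.9, 32.8, 39.5 and 14.99 in Siah2 KO tumors 1, 2, 3, 5 and 6. The lowest WT tumor and the highest Siah2 KO tumor were close, although no value crossed. The coefficient of variation, the SD as a percentage of the mean, was 33.1% in Siah2 KO and 24.9% in WT, the widest of the 8 genes in both groups. The log2 fold change was -1.08, with a 95% confidence interval of -1.65 to -0.52 and an adjusted p of 0.0069 by limma.

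Tgfb1, the ligand best known for control of the immune system, did not pass. It had 1388, 1482, 1415, 1606 and 1539 normalized counts in WT tumors 2 to 6 and 1423, 1595, 1837, 1714 and 1425 in Siah2 KO tumors 1, 2, 3, 5 and 6. The groups overlapped, with Siah2 KO tumors 3 and 5 above every WT tumor. Its log2 fold change was 0.10, with a 95% confidence interval of -0.12 to 0.32 and an adjusted p of 0.44 by limma. The sign of this value depended on the scaling, as described with the plot of fold change by scaling.

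The unequal change of the ligands was tested within tumors, where the scaling factor of a tumor cancels apart from the added 1. The log2 value of Tgfb1 minus that of Tgfb3 lay at 1.99 to 2.41 in WT and at 3.13 to 4.11 in Siah2 KO. This distance between the ligands was 1.48 larger in Siah2 KO (two-sided exact permutation p = 0.0079, the smallest that 5 tumors against 5 allow, and 0.014 adjusted over the 7 pairs compared). Tgfb1 minus Tgfb2 was 4.23 to 5.03 in WT and 5.40 to 6.48 in Siah2 KO, a difference of 1.18 with the same exact p. Tgfb2 minus Tgfb3 was -2.42 ± 0.27 in WT and -2.13 ± 0.58 in Siah2 KO (SD, n = 5 each), and its difference of 0.29 did not pass (exact p = 0.37). The 2 ligands that fell were thus not shown to have fallen by different amounts. These values are compared between groups and not between genes, since each gene has its own probe.

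Upstream sequences are shown for the ligands Tgfb1 and Tgfb2, which changed unequally. They are the 250 bases before the annotated RefSeq start, 5′ to 3′, in build GRCm38.p6. Of the 8 genes, 5 were matched in the table of promoters, and the windows of 4 are printed. Capitals mark exact matches, on either strand, to 6 motifs, which were the TATA box TATAAA, the E-box CACGTG, the GC box GGGCGG, the AP-1 site TGANTCA, the cyclic AMP response element TGACGTCA and the Smad-binding element CAGACA.
Tgfb1, chr7:25686752-25687001, plus strand: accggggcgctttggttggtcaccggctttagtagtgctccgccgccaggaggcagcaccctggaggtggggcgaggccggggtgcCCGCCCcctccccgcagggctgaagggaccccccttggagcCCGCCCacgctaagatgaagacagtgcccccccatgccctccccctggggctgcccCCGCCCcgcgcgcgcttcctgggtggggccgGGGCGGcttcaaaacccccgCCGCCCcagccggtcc
Tgfb2, chr1:186705990-186706239, minus strand: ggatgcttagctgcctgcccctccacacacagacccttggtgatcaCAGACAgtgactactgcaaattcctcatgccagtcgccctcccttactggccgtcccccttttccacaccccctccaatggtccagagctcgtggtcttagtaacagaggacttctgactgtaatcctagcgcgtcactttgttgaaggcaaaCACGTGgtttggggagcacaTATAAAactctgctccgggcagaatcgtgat
The Tgfb1 window held 5 GC box matches, 4 of them on the opposite strand (read as CCGCCC), and none of the other 5 motifs. The Tgfb2 window held no GC box, and had 1 TATA box starting 31 bases before the start, 1 E-box at 51 bases and 1 Smad-binding element at 204 bases. Over all 32851 windows of this length in the table, 32.7% held a GC box, 12.4% a TATA box, 6.02% the E-box and 17.1% the Smad-binding element. A match is a description of the letters, and binding was not measured.

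The fold changes of the receptors and Smads were nearer to 0 than those of Tgfb2 and Tgfb3. Tgfbr2, the receptor that binds the ligand, had 1723, 1846, 1795, 1916 and 1819 normalized counts in WT tumors 2 to 6 and 1426, 1488, 1495, 1458 and 1336 in Siah2 KO tumors 1, 2, 3, 5 and 6. Both groups were tight, with coefficients of variation of 3.87% in WT and 4.48% in Siah2 KO, and they did not overlap. The log2 fold change was -0.34 with an SE of 0.072, a ratio of 0.792, at an adjusted p of 0.0045 by limma.

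Tgfbr1, the receptor kinase that phosphorylates the Smads, had 539, 585, 484, 613 and 600 normalized counts in WT tumors 2 to 6. In Siah2 KO tumors 1, 2, 3, 5 and 6 it had 383, 401, 518, 514 and 578. Siah2 KO tumors 1 and 2 were below every WT tumor, and the other 3 lay within the WT range. The log2 fold change of -0.25 had a 95% confidence interval of -0.55 to 0.047 and an adjusted p of 0.16 by limma. Tgfbr2 passed and Tgfbr1 did not, yet the difference between them was not shown. The log2 value of Tgfbr1 minus that of Tgfbr2 was -1.69 ± 0.11 in WT and -1.60 ± 0.29 in Siah2 KO (SD, n = 5 each, exact permutation p = 0.60).

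Smad3, the receptor-activated Smad that binds DNA directly, had 577, 587, 578, 660 and 626 normalized counts in WT tumors 2 to 6 and 428, 503, 463, 455 and 482 in Siah2 KO tumors 1, 2, 3, 5 and 6. Every Siah2 KO value was below every WT value. The log2 fold change was -0.38 with an SE of 0.080, a ratio of 0.770, at an adjusted p of 0.0043 by limma. Smad2, the other receptor-activated Smad of this branch, had 145, 169, 172, 173 and 141 in WT and 168, 151, 183, 192 and 156 in Siah2 KO, in the same order of tumors. These groups overlapped, with a log2 fold change of 0.090 and an adjusted p of 0.51.

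Smad4, the partner shared by the receptor-activated Smads, had 442, 484, 455, 397 and 445 normalized counts in WT tumors and 454, 452, 447, 438 and 397 in Siah2 KO tumors, in the same order. No Siah2 KO tumor was outside the WT range. Its log2 fold change of -0.021 had a 95% confidence interval of -0.20 to 0.16 and an adjusted p of 0.85, and its sign turned to 0.019 when only the 10 least variable reference genes set the scale. It was at -0.29 with median scaling (adjusted p = 0.051) and passed as lower with quantile normalization, at -0.37 (adjusted p = 0.017 by limma).

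Within tumors, Smad3 stood apart from both other Smads. The log2 value of Smad2 minus that of Smad3 was 0.47 higher in Siah2 KO (exact permutation p = 0.0079, 0.014 adjusted over the 7 pairs). Smad3 minus Smad4 was 0.45 ± 0.18 in WT and 0.091 ± 0.13 in Siah2 KO (SD, n = 5 each), a difference of -0.36 with the same exact p. Neither distance overlapped between the groups, but the gaps were narrow. Smad3 minus Smad4 was 0.2776 in Siah2 KO tumor 6 and 0.2787 in WT tumor 3. Smad2 minus Smad3 was -1.727 in Siah2 KO tumor 2 and -1.744 in WT tumor 4. For Smad2 minus Smad4 the difference was 0.11 (exact p = 0.31). Under median scaling, quantile normalization and positive control scaling, Smad2 was lower instead of higher in Siah2 KO, at -0.18, -0.16 and -0.072 in that order.

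**Figure D3:**
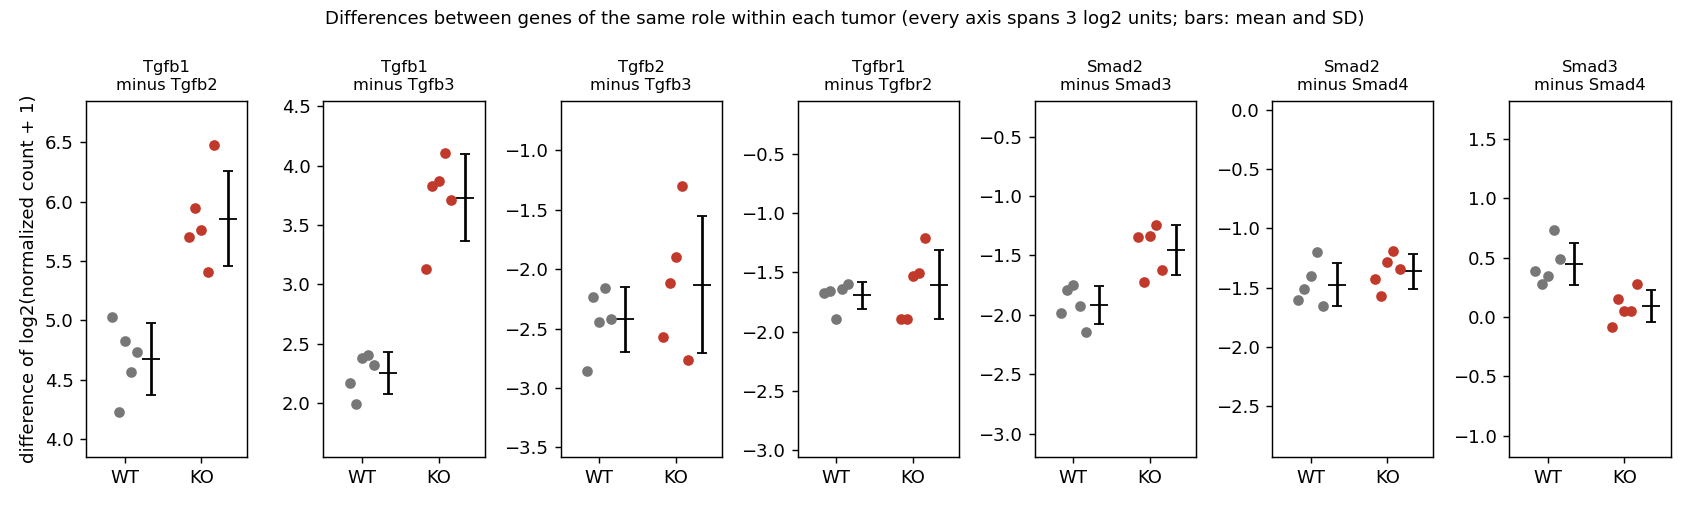
Difference of log2(normalized count + 1) between 2 genes of the same role in each tumor (vertical axis, log2 units, each spanning 3 units), for WT (grey) and Siah2 KO (red), with the mean and SD of each group as a bar. The groups do not overlap for Tgfb1 minus Tgfb2, Tgfb1 minus Tgfb3, Smad2 minus Smad3 and Smad3 minus Smad4. They overlap for the other 3 pairs, and the gaps are narrow for the pairs that hold Smad3.

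Upstream windows are also shown for Tgfbr2 and Smad3, the receptor and the Smad that fell, from the same source and with the same marking.
Tgfbr2, chr9:116175364-116175613, minus strand: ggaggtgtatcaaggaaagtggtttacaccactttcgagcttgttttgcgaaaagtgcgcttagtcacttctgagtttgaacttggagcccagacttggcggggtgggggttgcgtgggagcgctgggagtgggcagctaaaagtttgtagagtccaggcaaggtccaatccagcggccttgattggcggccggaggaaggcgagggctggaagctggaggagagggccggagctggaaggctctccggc
Smad3, chr9:63757995-63758244, minus strand: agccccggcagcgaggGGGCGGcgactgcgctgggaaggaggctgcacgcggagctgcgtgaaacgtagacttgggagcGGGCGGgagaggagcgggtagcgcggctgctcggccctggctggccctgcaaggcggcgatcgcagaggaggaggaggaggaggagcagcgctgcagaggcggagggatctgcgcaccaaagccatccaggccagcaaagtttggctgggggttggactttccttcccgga
The Smad3 window held 2 GC box matches, at 171 and 234 bases before the start. The Tgfbr2 window matched none of the 6 motifs.

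The fold changes depended on how the tumors were scaled. Median scaling, which gives all tumors an equal median over the endogenous probes, moved the median over all probes by -0.25, quantile normalization moved it by -0.28 and scaling to the positive control probes by -0.16. With a floor of 20 it moved by -0.11. Over all probes the calls were 241 higher and 75 lower as deposited, 163 and 152 with median scaling, 153 and 181 with quantile normalization and 60 and 35 with positive control scaling. Tgfb2 and Tgfb3 were lower and passed under all 13 alternative settings and with each of the 10 tumors left out in turn. Of the 8 genes 5 were lower with median scaling, where 19.7% of all probes were lower and 21.2% higher, 7 were lower with quantile normalization, where 23.5% were lower and 19.9% higher, and 2 were lower with positive control scaling, where 4.55% were. Tgfb1 went to -0.17 with median scaling (adjusted p = 0.087), -0.33 with quantile normalization (adjusted p = 0.0048) and -0.062 with positive control scaling (adjusted p = 0.96). Tgfbr1 passed at -0.52 with median scaling and -0.63 with quantile normalization. Tgfbr2 was at -0.60 with median scaling and -0.73 with quantile normalization, and Smad3 at -0.64 and -0.76. With positive control scaling, where the SE was 0.32 for Tgfbr2 and 0.33 for Smad3, they were at -0.50 and -0.54 and did not pass, at adjusted p of 0.36 and 0.33.

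**Figure D4:**
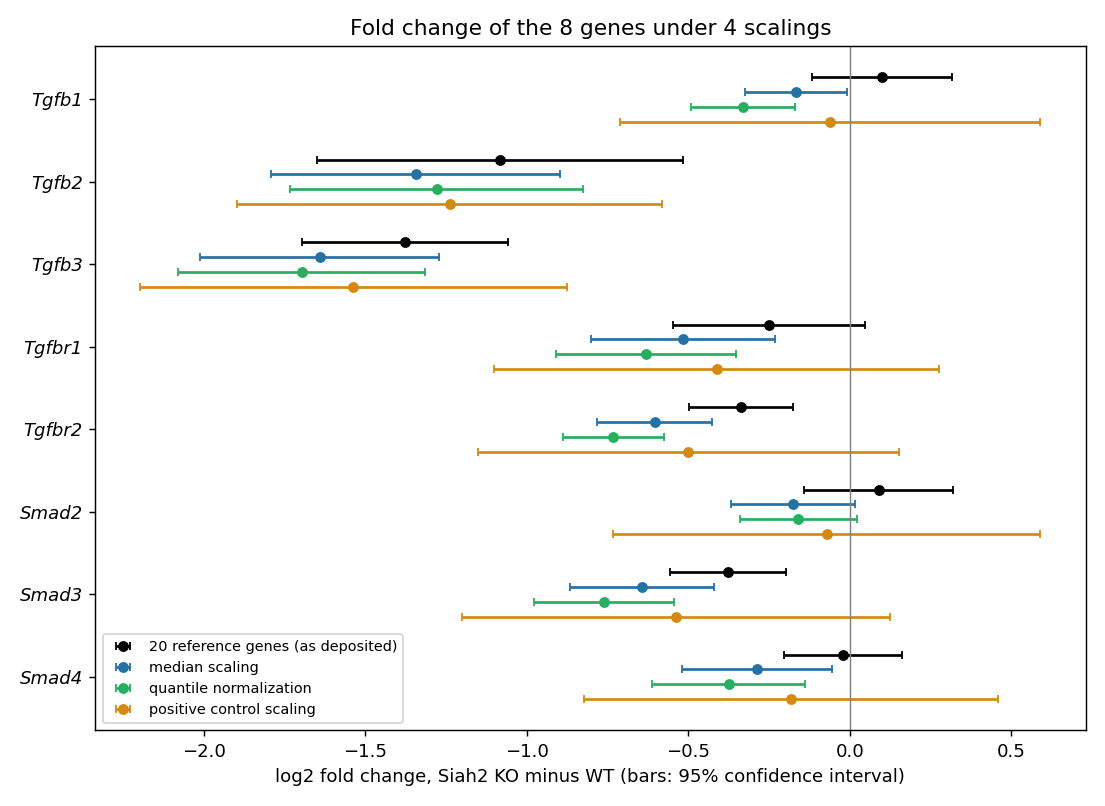
Log2 fold change, Siah2 KO minus WT (horizontal axis), of the 8 genes (rows) under 4 scalings, with 95% confidence intervals as bars. Tgfb2, Tgfb3, Tgfbr1, Tgfbr2, Smad3 and Smad4 lie below 0 with all 4 scalings. Only for Tgfb2 and Tgfb3 do the intervals exclude 0 with all 4. The values of Tgfb1 and Smad2 are above 0 as deposited and below 0 with the other 3.

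The tumors are mixtures of melanoma cells, fibroblasts, vessels and leukocytes, so fewer cells of a type and less RNA per cell cannot be told apart. By flow cytometry, the study found comparable numbers and shares of leukocytes, CD4+ and CD8+ T cells and macrophages in YUMMER1.7 tumors of both hosts. That measure counts cells, whereas the panel measures RNA, and why the leukocyte RNA differed was not tested. The marker lists differed between the groups. Of 8 leukocyte markers, 7 were higher and 0 lower, led by Itgb2 at 1.16 and Cd53 at 1.10 on the log2 scale, and their summed normalized counts were 6860 to 10324 in Siah2 KO and 4643 to 5710 in WT. Of 5 fibroblast markers, 4 were lower and 1 higher. Fap, a protease of activated fibroblasts, was at -1.97 and Col3a1, a fibrillar collagen, at -0.74, while Thy1, which T cells also express, was at 0.71. The summed fibroblast markers were 10964 to 13076 in Siah2 KO and 16865 to 21688 in WT, without overlap. Most of these sums came from Col3a1, at 8067 to 9614 in Siah2 KO and 13498 to 17631 in WT. Of 6 T cell markers 3 were higher (Cd3g, Cd3e and Cd3d) and 0 lower, with sums of 567 to 1042 in Siah2 KO and 427 to 558 in WT. Of 7 macrophage markers 2 were higher, Msr1 and Cd68, and 1 lower, Mrc1, with sums of 17660 to 26179 in Siah2 KO and 15467 to 18912 in WT. Of 6 endothelial markers Pecam1 was higher, Vwf and Cdh5 lower, and the sums of 676 to 783 in Siah2 KO and 700 to 809 in WT overlapped. Of 3 melanoma markers S100b and Cspg4 were lower and 0 higher, and the sums were 224 to 405 in Siah2 KO and 438 to 594 in WT. The study saw no obvious difference between the hosts in melanoma markers of YUMMER1.7 tumors, and its text does not name those markers. S100b was near the floor, at 1.03 to 2.51 normalized counts in Siah2 KO and 6.29 to 26.7 in WT. It was at the floor in 3 Siah2 KO tumors. With a floor of 20, and with a filter at a mean of 20, only 1 melanoma marker was lower. No gene of these lists was at the floor in all tumors. The counts depended on the scaling. Leukocyte markers were higher for 4 genes with median scaling, 3 with quantile normalization and 2 with positive control scaling, and fibroblast markers were lower for 4, 4 and 2. With positive control scaling 0 T cell markers and 0 macrophage markers were higher, and with median scaling and with quantile normalization 5 endothelial markers were lower. The part of these lists in the changes of the TGF-beta genes was not tested beyond the relative values that follow.

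Each gene was then expressed relative to a marker list, by subtracting the list's log2 value in each tumor. Relative to the median of the leukocyte markers, which was 0.55 higher in Siah2 KO, all 8 genes were lower and passed, where 34% of all probes were lower and 10.1% higher. With quantile normalization 7 of the 8 were lower, without Smad2, and over the 8 tumors with a number found in both groups 6, without Tgfb1 and Smad2. For these settings the share of all probes is not given, so the counts cannot be set against it. The relative log2 fold changes ran from -0.45 for Tgfb1 and -0.46 for Smad2 to -1.64 for Tgfb2 and -1.93 for Tgfb3. Relative to the median of the 5 fibroblast markers all 8 genes were likewise lower and passed, against 39.1% of all probes lower and 7.27% higher, but that median was the value of Thy1 in all 5 Siah2 KO tumors. The mean of the list was therefore used as well, a choice made after the values were seen. Relative to that mean, which was 0.68 lower in Siah2 KO, only Tgfb3 of the 8 genes was lower at adjusted p under 0.05 by limma, at -0.70 with an adjusted p of 0.0017, where 1.82% of all probes were lower. Tgfb2 was at -0.40 (adjusted p = 0.10), and the other 6 genes were higher, where 80% of all probes were higher. With Thy1 left out of the mean, Tgfb3 was at -0.35 (adjusted p = 0.062) and Tgfb2 at -0.054 (adjusted p = 0.83). Relative to fibroblast markers, the direction for 6 of the 8 genes therefore turned with the way the list was summarised.

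Other genes of the pathway did not move in 1 direction. Of 4 activators and co-receptors of TGF-beta on the panel, Thbs1 was higher, Mmp9 and Nrp1 were lower, and Eng did not pass. Thbs1, thrombospondin, which can release the ligand from its latent form, was at 269 to 446 normalized counts in WT and 773 to 1440 in Siah2 KO, a log2 fold change of 1.63. Mmp9, a matrix protease that can also release it, was at 57.8 to 77.3 in WT and 8.92 to 46.9 in Siah2 KO, a log2 fold change of -1.49. The groups did not overlap for either gene, and the directions were opposite. Nrp1, a co-receptor, was at -0.46 with an adjusted p of 0.026. The count of lower genes in this list fell to 1 without WT replicate 3, without Siah2 KO replicate 2, without Siah2 KO replicate 3 and with positive control scaling, and rose to 3 with median scaling and with quantile normalization.

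Of 7 transcriptional partners and regulators of Smads, 3 were higher and 0 lower, with a median log2 fold change of 0.069. Fos, a subunit of AP-1, was at 1.78, Runx3 at 0.80 and Jun, the other AP-1 subunit, at 0.24, the last with overlapping groups. The co-activators Crebbp and Ep300 were at -0.035 and -0.0084 and did not pass. With quantile normalization 4 of this list were lower. Of 6 genes of the Smad-independent kinase arm only Tab1, which activates the kinase encoded by Map3k7, passed, at -0.27 with an adjusted p of 0.041 by limma. That call was lost when only the 10 least variable reference genes set the scale, with positive control scaling and in 8 of the 10 fits that left out a tumor, all but those without WT replicate 4 and without Siah2 KO replicate 5. In this list 2 genes were lower with median scaling and 3 with quantile normalization.

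Of 11 matrix and mesenchymal genes known to be induced by TGF-beta, 6 were lower and 1 higher, with a median log2 fold change of -0.41. With median scaling and with quantile normalization 8 were lower and 0 higher, and with positive control scaling 2 lower and 0 higher. Fap, Snai1, Fn1 and Col3a1 led, at -1.97, -0.79, -0.74 and -0.74, with no overlap of the groups. Snai1, a transcription factor of the mesenchymal state, was at 76.5 to 116 normalized counts in WT and 36.6 to 64.4 in Siah2 KO. Fn1, the matrix protein fibronectin, was at 12971 to 17788 in WT and 7131 to 11990 in Siah2 KO. Vegfa, an angiogenic factor, was the gene that was higher, at 0.68. Vim, an intermediate filament abundant in mesenchymal and melanoma cells, did not pass, at 0.00081. Twist1 at -0.24, Cdkn1a, a cell cycle inhibitor, at 0.24 and Il11 at 0.34 did not pass either. Il11 was near the floor, at 1.6 to 10.1 normalized counts in Siah2 KO and 1 to 9.54 in WT. Fap, Col3a1 and Col1a1, which are 3 of the 6 lower genes, are also among the fibroblast markers, so these lists are not independent.

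Both T cell genes known to be induced by TGF-beta were lower, and 4 of 5 known to be repressed by it were higher. Foxp3, the factor that defines regulatory T cells, and Itgae, the integrin chain of tissue-resident T cells, were at -0.92 and -1.15. Their groups overlapped, with 4 of 5 Siah2 KO tumors below all WT tumors for Foxp3 and 3 of 5 for Itgae. Of these 2 calls 1 was left without WT replicate 2 and without Siah2 KO replicate 1, and 0 over the 8 tumors with a number found in both groups. Among the repressed genes, which encode cytokines, cytotoxic proteins and the Th1 factor Tbx21, Ifng was at 1.92, Gzmb at 1.85, Prf1 at 1.34 and Tbx21 at 0.93, each without overlap of the groups. Il2, at 1.03 to 10.5 normalized counts in Siah2 KO and 1.32 to 7.69 in WT, did not pass. Of the 6 T cell markers 3 were also higher. By flow cytometry, the study found comparable numbers of CD4+ and CD8+ T cells in tumors of both hosts. Among CD4+ cells of Siah2 KO tumors it found a lower share of FOXP3+ cells and a higher share of T-bet+ (Th1) cells. The FOXP3 level within regulatory T cells was comparable there. The part of T cell number and of these shares in the RNA changes was not tested here. The induced and repressed genes respond to many other signals as well, and the study describes several of them for these tumors. Their direction is therefore not independent evidence about TGF-beta.

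**Figure D5:**
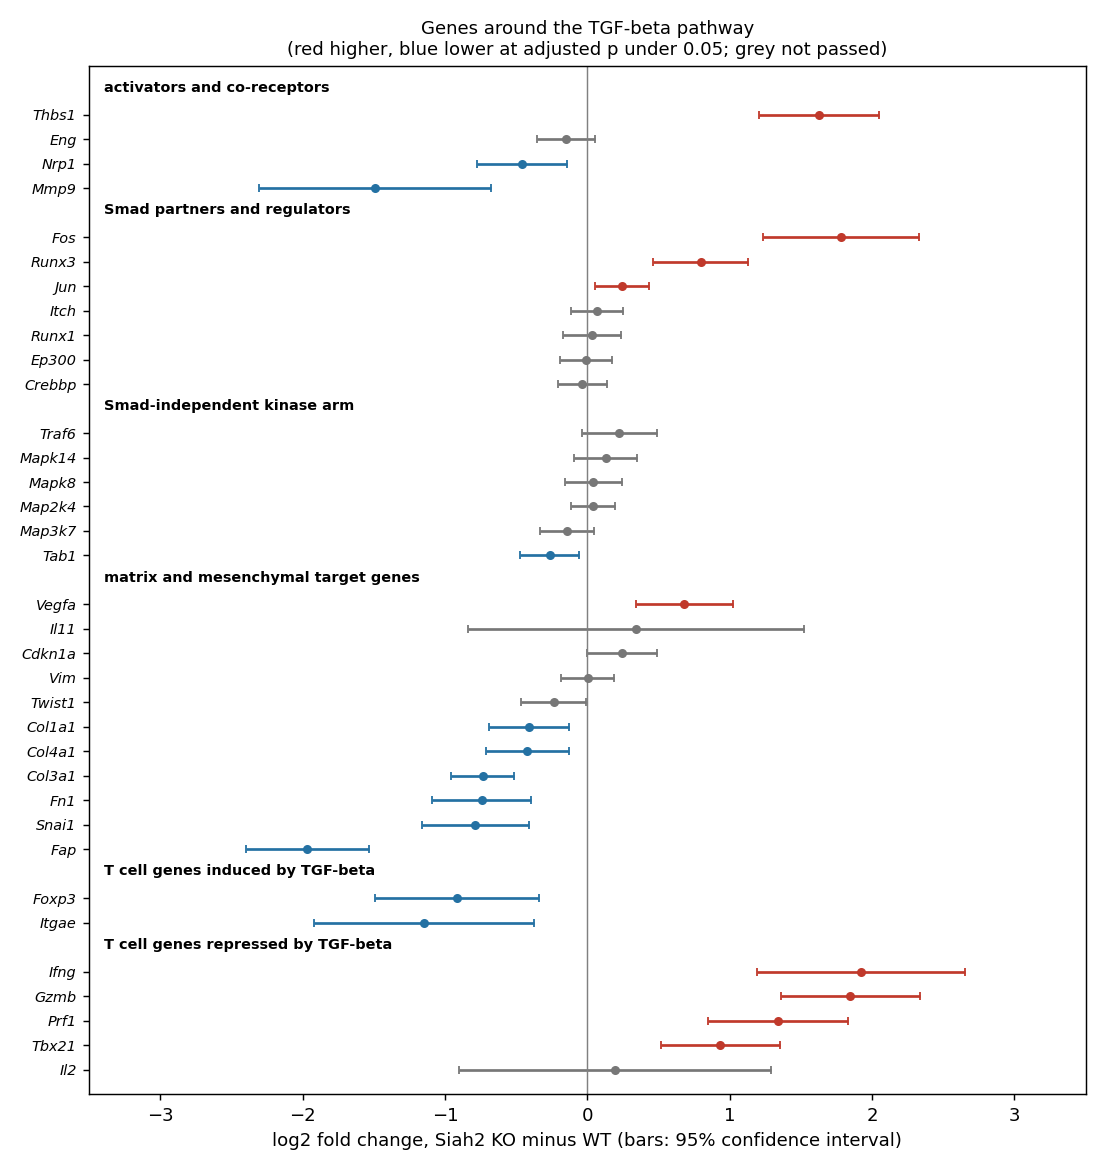
Log2 fold change, Siah2 KO minus WT (horizontal axis), with 95% confidence intervals, of the genes of 6 lists around the pathway (rows). Red points are higher and blue points lower at adjusted p under 0.05, and grey points did not pass. Matrix genes lie mostly below 0, for example Fap at -1.97, and the genes repressed by TGF-beta in T cells mostly above 0, for example Ifng at 1.92.

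The genes whose level followed each ligand most closely from tumor to tumor differed between the ligands. After each group mean was taken away, Pearson's r over the 10 tumors and 594 candidate probes was highest for Tgfb1 with Tnfaip3 (0.95), Bid (0.92) and Msr1 (0.91). For Tgfb2 it was highest with Itga1 (0.96), Lamp1 (0.96) and App (0.94), and for Tgfb3 with Ncam1 (0.81), Mill2 (0.77) and Twist1 (0.76). The Spearman values ran from 0.62 to 0.95 over these 9 genes. These correlations are a description, since they were the highest of many and the points share the scaling factor of their tumor. Of the 3 genes nearest to Tgfb3, Ncam1 was itself lower in Siah2 KO, at 678 to 829 normalized counts in WT and 322 to 409 in Siah2 KO, and Mill2 and Twist1 did not pass. Of the 3 nearest to Tgfb2, Itga1 was also lower, at -0.49 (adjusted p = 0.019 by limma), and Lamp1 and App did not pass. Tnfaip3, Bid and Msr1 were each higher in Siah2 KO, whereas Tgfb1 did not pass.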

How the data were processed

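Expression was measured in 10 tumors, 5 WT (replicates 2 to 6) and 5 Siah2 KO (replicates 1, 2, 3, 5 and 6), from 100 ng RNA each, and groups were taken from the labels. The series text names another cell line and gene than the sample labels and the paper, and the sample labels were followed. The deposited signal values are normalized counts, which the authors made with nSolver 2.0 by scaling to 20 reference genes. As seen from the values, a background constant had been subtracted before that factor was applied, and no value was under 1 before or after it. In each tumor 100% of values above this floor and under 150 lay whole steps above the smallest of them, within 0.1 of a step. The step was the factor of that tumor. The factors were 0.918 to 1.32 in WT and 1.03 to 1.60 in Siah2 KO, and the sums before the factor were 382885 to 581616 per tumor, which limits the precision of low genes such as Tgfb2.

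From these values log2(value + 1) was fitted for 770 probes with limma 3.58.1 in R 4.3.3, and p-values were adjusted by Benjamini-Hochberg. Within-tumor differences of 7 pairs were compared with two-sided exact permutation tests. The panel has no Siah2 probe, so the deletion could not be checked. The genes, lists and tests were chosen with earlier results of these data known. All 8 TGF-beta genes were named, and from each list at most the 4 genes at adjusted p under 0.05 with the largest change, with others named for contrast. For each ligand the 3 probes with the highest correlation within groups were named. There were 13 alternative settings, 10 fits that left out a tumor, and 2 settings added after seeing the data. Replicate numbers were not treated as pairs. The fit was tested on simulated data. When 200 of 770 genes differed by 1 (log2), 86% were recovered and 3.91% of calls were false. The simulated noise was independent between genes, so a scaling error shared by the genes of a tumor was not covered. Changes as small as those of Tgfbr2 and Smad3 were not simulated. Python 3.11.15 with matplotlib 3.10.9 drew the plots.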

Additional observations from a re-analysis of the deposited data

Results flagged for a closer look

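Among 98 groups of 5 tumors examined, 4 held a tumor far from the others, where chance gives about 1 in 20. The number flagged was thus no higher than chance gives. Smad4 in Siah2 KO tumor 6 was at 397 normalized counts, and the other 4 Siah2 KO tumors were at 438 to 454. Within WT, the log2 value of Tgfbr1 minus that of Tgfbr2 was -1.89 in tumor 4 and -1.68 to -1.60 in the others. Fos in Siah2 KO tumor 5 was at 583 normalized counts, above 300.4 to 360 in the others. Pecam1 in Siah2 KO tumor 6 was at 238, below 310 to 330 in the others. Smad4 and Pecam1 were thus both lowest in the same tumor, and the cause was not tested.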

How the results depend on the processing

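Low counts limit Tgfb2 most, and 5 tumors per group allow no exact p under 0.0079. Of the 8 genes, 4 were lower with every tumor left out in turn (4 to 4), 7 with quantile normalization and 2 with positive control scaling. With the replicate number as a block, over the 8 tumors with a number shared by WT and Siah2 KO, 2 were lower, as were 45 of the 770 probes, Tgfb2 at -1.14 and Tgfb3 at -1.54, while Tgfbr2 was at -0.34 (adjusted p = 0.060) and Smad3 at -0.36 (adjusted p = 0.060). The same 8 tumors without the block gave 4, and 50 of the 770 probes. The labels give the numbers no shared source, and deviations of same-numbered tumors correlated at 0.035, 0.050, 0.17 and 0.35, not all over 0.1, although each of the 8 correlated best with the tumor of its own number in the other group. No gene of the 8 was higher under any of these settings (0 to 0 with a tumor left out).

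Tgfb1 reversed to -0.17, -0.33 and -0.062 and Smad2 to -0.18, -0.16 and -0.072 with median scaling, quantile normalization and positive control scaling. Smad4 reversed to 0.019 with 10 reference genes, 0.010 without WT replicate 3 and 0.014 without Siah2 KO replicate 6, within a range of -0.061 to 0.014 with a tumor left out, and passed as lower at -0.37 with quantile normalization (-0.29 with median scaling, not passed). The cause was not tested beyond the shift in the median of all probes.

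Relative to leukocyte markers 8 genes were lower with each tumor left out (8 to 8), 7 with quantile normalization and 6 over the 8 tumors with and without the block. With the block the lists gave 1 lower activator, 0 higher matrix genes, 0 lower kinase genes and 0 lower genes induced in T cells. Relative to fibroblast markers the count was 8 to 8 with a tumor left out, 5 over the 8 unblocked tumors, 1 with 6 higher for the list mean, and 0 with 6 higher for the mean without Thy1. Of all probes 1.82% were lower and 80% higher for the list mean, and 1.17% and 88.8% for the mean without Thy1. For the other counts relative to a marker list here, the share of all probes is not given, so they cannot be set against it. The values that reversed with the mean were Tgfb1 0.78, Tgfbr1 0.43, Tgfbr2 0.34, Smad2 0.77, Smad3 0.30 and Smad4 0.66. Without Thy1 they were Tgfb1 1.13, Tgfbr1 0.78, Tgfbr2 0.69, Smad2 1.12, Smad3 0.65 and Smad4 1.01. Thy1 moved against the other 4 markers, as the values in the report show.

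For the differences within tumors, leaving out a tumor gave 1.03 to 1.30 for Tgfb1 minus Tgfb2, 1.38 to 1.63 for Tgfb1 minus Tgfb3, 0.086 to 0.45 for Tgfb2 minus Tgfb3, -0.011 (without Siah2 KO replicate 6) to 0.16 for Tgfbr1 minus Tgfbr2, 0.41 to 0.54 for Smad2 minus Smad3, 0.065 to 0.18 for Smad2 minus Smad4 and -0.40 to -0.28 for Smad3 minus Smad4. Over the 8 unblocked tumors Tgfb1 minus Tgfb2 was 1.26, Tgfb1 minus Tgfb3 1.66, Smad2 minus Smad3 0.48 and Smad3 minus Smad4 -0.34, each at an adjusted exact p of 0.05, which fewer tumors limit. No block was fitted for these exact tests.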
